A study of Homo sapiens with 6 samples.

Results

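The genes described here are 10 factors of start codon selection and of the steps around it: EIF1, its close paralog EIF1B, EIF1AX, EIF5, EIF5B, BZW1, BZW2, DENR, MCTS1 and EIF2D. They were picked by their known role rather than by a threshold on measured values, although earlier results of these data were known, and all 10 were found among the 30618 genes of the count table and passed the filter on low counts, which left 16749 genes. The libraries came from ARPE-19, an established line of human cells from the retinal pigment epithelium, and all 6 were from cells in 50 mM glucose, a model of diabetic retinopathy. The NC group (3 libraries) received a negative control siRNA, and the siEIF1 group (3 libraries) an siRNA against EIF1, so the comparison asks how the other 9 members stood when EIF1 mRNA was depleted in high glucose. No library from normal glucose entered the comparison. Both groups are transfected cultures of a single cell line, and the libraries hold captured mRNA, so protein and translation are not in these values.

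Start codon selection is the step of translation at which the small ribosomal subunit, scanning along an mRNA from its cap, stops at an AUG triplet and commits to it. EIF1, EIF1AX and EIF5 bind that subunit and set how strictly the codon and its neighbouring bases are read: EIF1 and EIF1AX keep the complex open and scanning, while EIF5 promotes the step that fixes the start. BZW1 and BZW2 resemble a part of EIF5 and compete with it, EIF5B joins the large subunit once the start is fixed, and DENR, MCTS1 and EIF2D release or reload subunits after a short upstream reading frame has been translated. These factors also act on their own mRNAs, since EIF1 is known to have a start codon in a poor sequence context and EIF5 to be held back by upstream AUGs.

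The libraries held from 26499929 to 31431479 counts. Of 11 markers of pigment epithelium, KRT8, KRT18, MITF, OTX2 and BEST1 were well counted. TYR and TYRP1 had a mean FPKM (a level scaled for exon length and library size) under 0.1 in each group. LRAT and PMEL were low as well, with NC means of 0.12 and 0.27. RPE65, the visual cycle isomerase that defines the mature tissue, was not among the genes listed. The summed FPKM of the 10 listed pigment epithelium genes ran from 521 to 540.3 in the NC and from 563.3 to 609.8 in the siEIF1 group. At an adjusted p under 0.05 by edgeR, 10.2% of all tested genes were higher and 10.4% lower. Of the 8 tested pigment epithelium genes, 3 were higher. These were KRT8 (113 to 131.5 in group means) and KRT18 (326.5 to 382), keratins of many simple epithelia that make up most of the sum, and RLBP1, a retinoid carrier at a mean FPKM of 0.237 and 0.68. BEST1, a channel of the pigment epithelium, had means of 65.97 and 51.96 and did not pass (log2 fold change -0.32, edgeR adjusted p = 0.106). The 4 endothelial markers summed to at most 0.26 and the 3 leukocyte markers to at most 1.01 in any library. Fibroblast markers, nearly all of it PDGFRB, summed to between 6.81 and 9.59 in the NC and between 11.47 and 13.85 in the siEIF1 group. Of the 2 tested fibroblast genes, 1 was higher, PDGFRB (log2 fold change 0.60, edgeR adjusted p = 0.00176). Interferon response genes, which some siRNAs induce, included 0 higher and 1 lower of 5 tested, with 2 at an unadjusted p under 0.05 by edgeR and 1 past the adjusted threshold by DESeq2. All 8 proliferation genes listed were lower in the siEIF1 group, with a median log2 fold change of -1.06 and summed FPKM from 92.92 to 96.48 in the NC and from 65.98 to 68.97 in the siEIF1 group. PCNA made up most of this sum (67.04 and 54.55 in group means) and fell least of the 8 (log2 fold change -0.28). In a bulk sample, fewer cells of a kind and less RNA per cell cannot be told apart, and the part of these shifts in the members' values was not tested.

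The start codons of the members are shown first, because their context is what these factors read. In the canonical transcripts of GENCODE release 44 on GRCh38, the bases that matter most are a purine (A or G) at the third position before the ATG and a G directly after it. Each sequence is written on the sense strand, 5′ to 3′, as DNA, and the capitals mark the third base before the ATG, the ATG itself and the base after it. The first pair are the paralogs EIF1 and EIF1B, the next pair the EIF5 mimics, and EIF5 and DENR are shown for contrast.
EIF1: tcgtatCgtATGTcc
EIF1B: tagtatCgcATGTcc
BZW1: gtgtctTttATGAat
BZW2: agaaatTttATGAat
EIF5: taagccAaaATGTct
DENR: gtttgtGaaATGGct

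EIF1 and EIF1B carried a C at the third base before the ATG and a T after it, and BZW1 and BZW2 a T and an A at the same places. Of the 10 members, 4 thus had neither a purine at the first position nor a G at the second. Among 19292 protein-coding canonical transcripts with an ATG start, 14% lacked the purine and 6.15% lacked both. The other 6 members had the purine, and 2 of them, EIF5B and DENR, also had the G. Upstream ATGs, counted in any frame on the sense strand of the 5′ untranslated part, were found in 4 members (EIF5, EIF5B, DENR and EIF2D), against 43.1% of all these transcripts. EIF5 had 3 of them within 441 bases of 5′ untranslated sequence and the other 3 had 1 each. These are properties of the reference sequence and were not measured in the libraries.

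In the control cells EIF1 was by far the most abundant of the group. Its FPKM exceeded those of 99.4% of the tested genes, and EIF1 alone made up 63.4% ± 0.726 (SD, n = 3) of the FPKM summed over the members. EIF1B followed at 31.9 ± 3.57 (SD, n = 3), and DENR, EIF5B, EIF1AX, EIF5, BZW1 and BZW2 lay between 15.95 and 23.55. EIF2D, at 8.88 ± 0.259 (SD, n = 3), and MCTS1, at 4.19 ± 0.210 (SD, n = 3), were the lowest. Over the 3 NC libraries the ranges overlapped between DENR and EIF5B, among EIF1AX, EIF5 and BZW1, and between BZW1 and BZW2. The order within each of these is not set by the data. EIF1AX (lowest NC value 18.44) and EIF5 (18.69) both lay above BZW2 (highest NC value 16.59).

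The order of the middle members also depended on the length by which counts were divided. The deposited FPKM values correspond to counts divided by the total length of all annotated exons of a gene, with a constant factor of 1.227 to 1.228 over the 10 members. For EIF2D this length is 8066 bases and its canonical transcript has 2011. When counts were divided by the canonical transcript instead, as CPM (counts scaled to library size) per kilobase, EIF2D took the third place at 43.8 ± 1.55 (SD, n = 3), above EIF5 at 35.3 ± 1.69 (SD, n = 3). In the siEIF1 group EIF1 took the third place on both scales, behind EIF1B and DENR by FPKM and behind EIF1B and BZW2 per kilobase of canonical transcript, with overlapping libraries next to it. In the NC group EIF1 (544.1 ± 13.9), EIF1B (75.0 ± 8.09) and MCTS1 (5.79 ± 0.265; SD, n = 3 each) kept the first, second and last places.

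**Figure D1:**
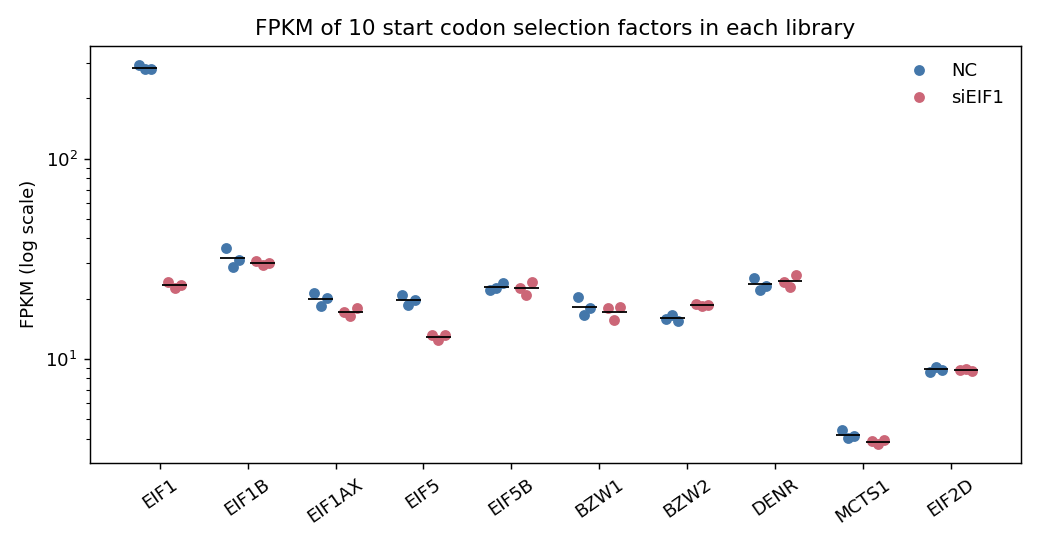
FPKM (log scale) of each member in the 3 NC and 3 siEIF1 libraries, with 1 point per library and a line at the group mean. EIF1 drops from between 281.08 and 294.35 to between 22.68 and 24.28, EIF5 is lower and BZW2 higher in every siEIF1 library, and most other members overlap.

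The gene EIF1 has 4 exons and is read from the forward strand (chr17:41688885-41692668 on GRCh38). Its FPKM was 294.35, 281.08 and 281.28 in NC replicates 1 to 3 and 24.28, 22.68 and 23.5 in siEIF1 replicates 1 to 3. The groups were far apart and the libraries within each group close together, and the siEIF1 mean was 8.22% of the NC mean. The log2 fold change on the counts was -3.58 (standard error 0.055, edgeR adjusted p = 1.08e-13), the largest in size of all 16749 tested genes. As the gene targeted by the siRNA, EIF1 checks the labels of the libraries, and the 6 libraries separated as labelled.

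Of the 9 other members, 3 passed an adjusted p of 0.05 in the quasi-likelihood test of edgeR, adjusted after Benjamini and Hochberg across the 16749 genes. EIF5 and EIF1AX were lower and BZW2 was higher in the siEIF1 group. With EIF1 this gives 4 of 10 members, 1 higher and 3 lower, where 20.6% of all tested genes passed (10.2% higher and 10.4% lower). Among the 5297 genes with a mean count above 1000, a depth that every member reaches, 30.6% passed. EIF1 alone also passed the fold limits that the study set (over 2 or under 0.5), a class that holds 1.71% of the tested genes. The CPM values, scaled by TMM, of the groups did not overlap for 5 members, MCTS1 in addition to these 4, against 37.1% of the tested genes. The median size of the log2 fold change was 0.074 over the 9 members other than EIF1 and 0.15 over all tested genes. These medians are not matched for depth. The standard errors ran from 0.049 to 0.070 for the members, and their median over all tested genes was 0.086.

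**Figure D2:**
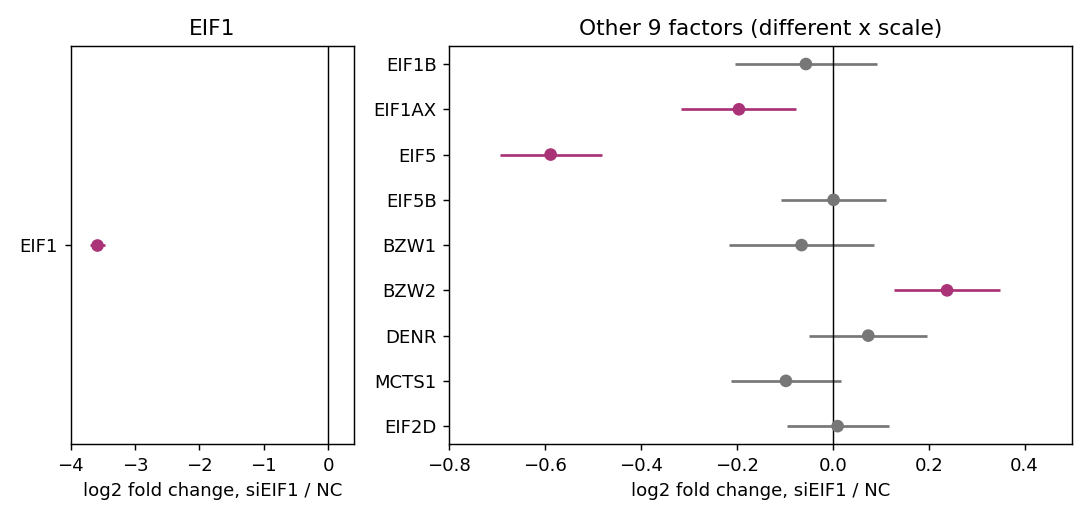
Log2 fold change (siEIF1 over NC, from counts) of each member with its 95% interval, EIF1 on a scale of its own. Purple marks members with an adjusted p under 0.05 and grey the others, and the interval of EIF5, from -0.70 to -0.48, lies apart from those of the 8 other members on the same axis.

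EIF5, the factor that works against EIF1 at the start codon by triggering GTP hydrolysis and fixing the start, changed most after EIF1 itself. The gene lies on the forward strand of chromosome 14 (chr14:103333544-103345025) and has 12 exons in its canonical transcript. Its FPKM was 20.75, 18.69 and 19.64 in the NC and 13.12, 12.42 and 13.2 in the siEIF1 libraries. All siEIF1 libraries lay below all NC libraries, and the gap between the groups was wider than the range within either. The fitted level fell by 33.5%, or by 0.59 on the log2 scale (standard error 0.049, 95% interval from -0.70 to -0.48, edgeR adjusted p = 3.35e-06). By p-value EIF5 ranked at place 98 of the 16749 genes, and by size of the log2 fold change at place 1172. Its counts ran from 3805 to 5611, so counting error is small beside the difference. Of the 5661 windows of 50 bases of EIF5, 8.97% also occur in other genes. Most of these are in ENSG00000291313, which overlaps EIF5 on the same strand, and their part in its value was not tested.

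EIF1AX, the partner of EIF1 in the open scanning complex, was lower by a smaller margin. Its gene is on the reverse strand of the X chromosome (chrX:20124525-20141838). The FPKM values were 21.38, 18.44 and 20.07 in the NC and 17.18, 16.43 and 17.94 in the siEIF1 libraries. The groups did not overlap, but the lowest NC library and the highest siEIF1 library were only 0.5 FPKM apart. The log2 fold change was -0.20 (standard error 0.056, 95% interval from -0.32 to -0.076, edgeR adjusted p = 0.0236), so the fitted level fell by 12.7%. This call was lost without NC replicate 1 (log2 fold change -0.14, adjusted p = 0.0974), without NC replicate 3 (-0.20, adjusted p = 0.0711) and without siEIF1 replicate 2 (-0.18, adjusted p = 0.0951). It was also lost with limma on FPKM values (adjusted p = 0.136 with a pseudocount of 1 and 0.128 with 0.1). Of its 4365 windows of 50 bases, 6.94% also occur in EIF1AXP1, a processed pseudogene with at most 9 counts in a library.

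BZW2 was the member that rose. It belongs to the family of proteins that mimic EIF5 and bind the same partners, which is known to make start selection stricter. The gene is on the forward strand of chromosome 7 (chr7:16646131-16706523). Its FPKM was 15.8, 16.59 and 15.46 in the NC and 18.86, 18.33 and 18.49 in the siEIF1 libraries, with the siEIF1 values close together and all above the NC values. The log2 fold change was 0.24 (standard error 0.051, 95% interval from 0.13 to 0.35, edgeR adjusted p = 0.00492), or 1.18 times the control level. Its paralog BZW1, with FPKM values of 20.28, 16.5 and 17.92 in the NC and 17.87, 15.57 and 18.14 in the siEIF1 libraries, overlapped between the groups. The log2 fold change of BZW1 was -0.065 with a 95% interval from -0.22 to 0.086, so a rise of the size fitted for BZW2 lies outside it. The difference between the paralogs' fold changes was not tested. Of the 6462 windows of 50 bases of BZW1, 14.7% also occur in other genes. Most of these are in BZW1P2, a pseudogene with at most 6 counts in a library.

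EIF1B encodes a protein of the same length as EIF1 (113 codons each) and nearly the same sequence. No difference between the groups was detected. The FPKM of EIF1B was 35.73, 28.69 and 31.19 in the NC and 30.93, 29.49 and 30.21 in the siEIF1 libraries, with all siEIF1 values inside the NC range. Its log2 fold change was -0.056 (standard error 0.069, 95% interval from -0.20 to 0.092, edgeR adjusted p = 0.625), an interval whose upper end is far below a doubling. NC replicate 1 was the highest NC library for EIF1B and for 6 further members, and without it the log2 fold change of EIF1B was 0.036 (adjusted p = 0.740). Since EIF1 fell and EIF1B did not move detectably, the EIF1B share of their summed FPKM went from 10.8%, 9.26% and 9.98% in the NC to 56.0%, 56.5% and 56.3% in the siEIF1 libraries. Per kilobase of canonical transcript the share was 12.1% ± 0.922 and 61.4% ± 0.245 (SD, n = 3 each), so the paralog held the larger part of the remaining mRNA on both scales.

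EIF5B, the GTPase of subunit joining, had FPKM values of 22.03, 22.55 and 23.84 in the NC and 22.59, 20.88 and 24.11 in the siEIF1 libraries, and the groups overlapped throughout. Its log2 fold change was 0.0016 with a 95% interval from -0.11 to 0.11. REV1 and TXNDC9 overlap EIF5B on the other strand, and of the 5689 windows of 50 bases of EIF5B, 14.1% also occur in REV1. Reads of these genes are separated only if counting used strand. The paper describes strand-specific libraries, but the sources used here do not state the setting of the counting. TXNDC9 had a mean count of 1230 and was lower (log2 fold change -0.23, edgeR adjusted p = 0.00950), and REV1 had a mean count of 754.8 and did not pass (0.10, edgeR adjusted p = 0.362). Their part in the value of EIF5B was not tested. The same holds for MCTS1 and CUL4B, which had a mean count of 3514 and a log2 fold change of 0.097 (edgeR adjusted p = 0.158), and for EIF2D and RASSF5.

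DENR and MCTS1 form a heterodimer that recycles small subunits and allows reinitiation, and EIF2D is a single protein with the same domains. DENR had FPKM values of 25.28, 22.16 and 23.21 in the NC and 24.21, 23 and 26.15 in the siEIF1 libraries (log2 fold change 0.074, 95% interval from -0.049 to 0.20). MCTS1 had 4.42, 4.01 and 4.14 in the NC and 3.87, 3.77 and 3.94 in the siEIF1 libraries, so the siEIF1 values all lay under the lowest NC value. The log2 fold change of MCTS1 was -0.098 (95% interval from -0.21 to 0.017, edgeR adjusted p = 0.228) and did not pass the test. EIF2D stayed closest to its control level among the 3, with 8.65, 9.16 and 8.83 in the NC and 8.85, 8.89 and 8.72 in the siEIF1 libraries (log2 fold change 0.010, 95% interval from -0.096 to 0.12). For these 3 genes and for EIF1B, EIF5B and BZW1, all of which missed the threshold, the intervals allow changes of up to 0.22 in size on the log2 scale.

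**Figure D3:**
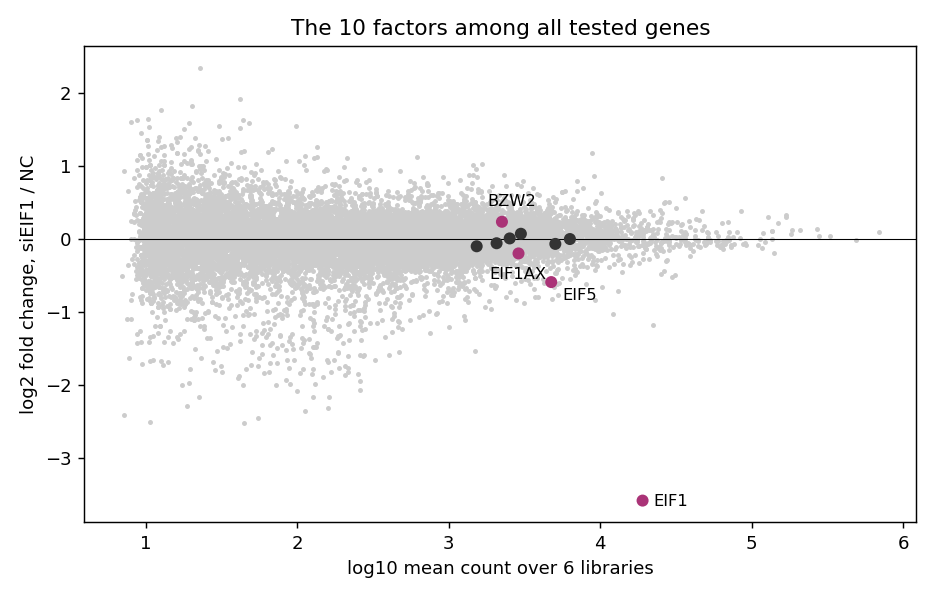
Log2 fold change (siEIF1 over NC) against log10 mean count for all 16749 tested genes in grey, with the 10 members as large points, purple where the adjusted p is under 0.05 and dark grey otherwise. EIF1 lies below every other gene, EIF5 stands below the bulk of genes of its count, and the other 8 members lie within that bulk.

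The balance between factors that oppose or partner each other was followed as ratios of FPKM within each library, with 1 value per library and a two-sided exact permutation test, whose smallest possible p for 3 libraries against 3 is 0.1. These ratios describe mRNA, not protein. The ratio of EIF5 to EIF1 was 0.0705, 0.0665 and 0.0698 in the NC and 0.540, 0.548 and 0.562 in the siEIF1 libraries, 7.98 times as high (exact permutation p = 0.1). EIF1 is the targeted gene, so its fall enters this ratio by design.

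The ratio of BZW1 plus BZW2 to EIF5, in which EIF1 has no part, was 1.74, 1.77 and 1.70 in the NC and 2.80, 2.73 and 2.77 in the siEIF1 libraries. It was 1.59 times as high, with a gap between the groups many times the spread within them (exact permutation p = 0.1, the smallest the design allows). EIF5 is the denominator, so its fall raises this ratio. The siEIF1 mean FPKM was 65.6% of the NC mean for EIF5, 94.3% for BZW1 and 116.4% for BZW2. The ratio of DENR to MCTS1 was 5.72, 5.53 and 5.61 in the NC and 6.26, 6.10 and 6.64 in the siEIF1 libraries, 1.13 times as high (exact permutation p = 0.1). The level of this ratio depends on the length used, as the annotated exons span 10764 bases for MCTS1 and 3526 for DENR. In CPM scaled by TMM, without division by length, the NC means were 101.3 for DENR and 55.0 for MCTS1. The groups did not overlap in the ratio of DENR to MCTS1 either, though neither gene passed its own test. The FPKM summed over the 9 members other than EIF1 was 165.1 ± 8.80 in NC libraries against 155.7 ± 6.25 in siEIF1 libraries (SD, n = 3 each), and its library values overlapped.

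**Figure D4:**
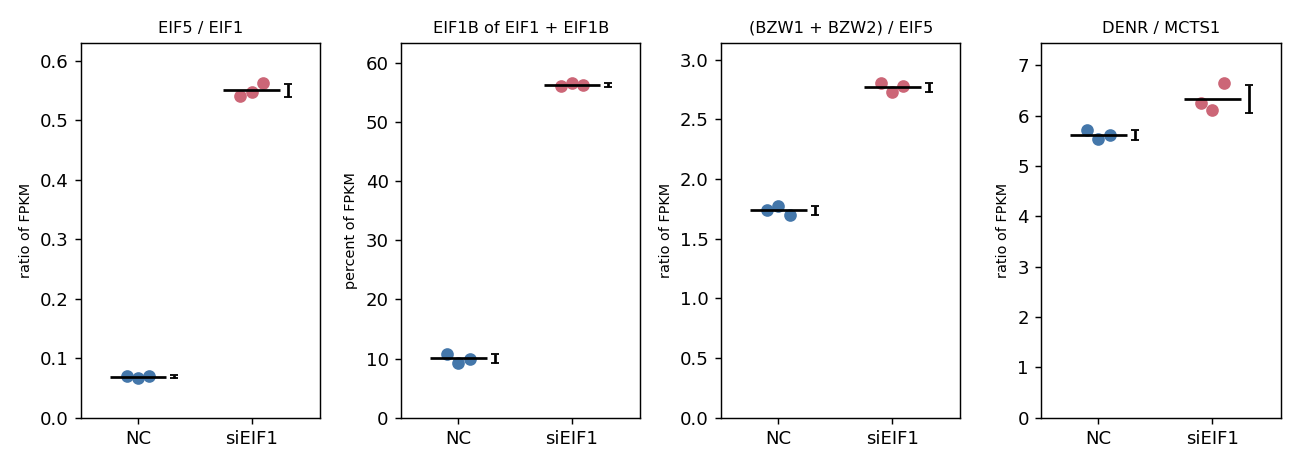
Ratios of FPKM within each library (the EIF1B panel in percent), 3 NC and 3 siEIF1 points per panel, with lines at the group means, error bars of 1 SD and axes that start at 0. In all 4 panels the siEIF1 libraries lie above the NC libraries, by 7.98 times for EIF5 to EIF1 and by 1.13 times for DENR to MCTS1.

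The other genes of initiation were taken from 7 lists with 103 distinct tested genes. Of these, 11 were higher and 13 lower at an adjusted p under 0.05 (edgeR), which is 23.3% against 20.6% of all tested genes. Many of the list genes are deeply counted, and among the 5297 genes with a mean count above 1000 the share was 30.6%. The largest log2 fold change among the list genes was -0.84. The ternary complex brings the initiator tRNA to the small subunit, and of its 8 genes 2 were lower, EIF2S1 (log2 fold change -0.27), the regulated alpha subunit of eIF2, and EIF2B3 (-0.25), a subunit of the exchange factor that recharges eIF2. The median of this list was -0.015.

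Of 14 genes of eIF3, the scaffold to which EIF1 and EIF5 dock, 4 were higher and 1 was lower, with a median of 0.054. EIF3C, the subunit that contacts EIF1 and EIF5, rose by 0.68 on the log2 scale (standard error 0.088, edgeR adjusted p = 1.38e-04). Its mean FPKM was 1.76 ± 0.115 in the NC group against 2.78 ± 0.352 in the siEIF1 group (SD, n = 3 each). EIF3C and EIF3CL, which also passed (0.58), are near-identical copies. The counts are of uniquely mapped reads, so reads that match both copies may be missing from both values. The mean counts left were 563.2 for EIF3C and 107.5 for EIF3CL. How well these stand for the full level of either mRNA was not tested. EIF3G rose by 0.23 and EIF3J, a loosely bound subunit, fell by 0.24 on the log2 scale.

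Of 16 genes of cap binding and scanning, 5 were higher and 2 lower, with a median of 0.091. EIF4EBP1, a repressor of the cap-binding protein, had a mean FPKM of 208.6 ± 18.1 in the NC group against 135.9 ± 5.86 in the siEIF1 group (SD, n = 3 each, log2 fold change -0.60, edgeR adjusted p = 1.56e-05). EIF4A1, the scanning helicase, rose by 0.28 and EIF4EBP2 by 0.25 on the log2 scale. Of 10 genes of termination, recycling and alternative tRNA delivery, only PELO, a factor that rescues stalled ribosomes, passed (-0.18, edgeR adjusted p = 0.0485), and it did not pass with DESeq2, by which 0 of the 10 did. By edgeR 3 of the 10 had an unadjusted p under 0.05.

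Of the 33 small-subunit ribosomal protein genes, 0 passed in either direction by edgeR, and their log2 fold changes ran from -0.11 to 0.13 with a median of -0.046. By edgeR 0 of them also had an unadjusted p under 0.05, and 0 passed with DESeq2.

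Genes whose translation is known to depend on start codon choice were listed as well, although counts of mRNA do not measure that choice. Of 15 mRNAs with upstream reading frames, 5 were lower and 1 higher, with a median of -0.082. DDIT3, a transcription factor of the stress response, fell by 0.84 on the log2 scale (standard error 0.058, edgeR adjusted p = 8.97e-07), CEBPB fell by 0.53 and PPP1R15B, a phosphatase subunit that restores eIF2, fell by 0.36, while ATF4, which controls many stress genes, rose by 0.24. Of 8 mRNAs with known starts at other codons than AUG, 2 were lower and 1 was higher. These were FGF2 (-0.48), VEGFA (-0.39), both growth factors with longer forms from upstream CUG codons, and BAG1 (0.20).

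**Figure D5:**
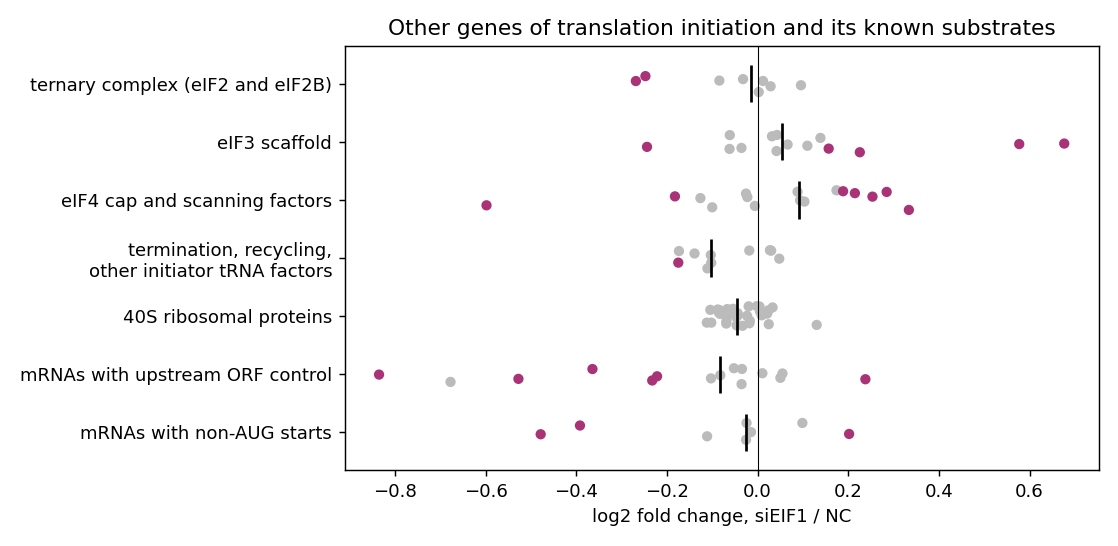
Log2 fold change (siEIF1 over NC) of each tested gene of the 7 lists, purple at an adjusted p under 0.05 and grey otherwise, with a black line at each list's median. Ribosomal protein genes gather between -0.11 and 0.13 with no purple point, while the eIF3, eIF4, upstream reading frame and non-AUG lists hold purple points on both sides of 0.

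The genes whose log2 CPM followed EIF1 most closely over the 6 libraries, among 13373 genes with a mean count of at least 50, were SGTA (Pearson's r = 0.9996), H3-3B (0.9995) and FEN1 (0.9992), and those that ran opposite to it TCF3 (-0.9986), ERLIN2 (-0.9983) and HABP4 (-0.9983). Since EIF1 forms 2 tight groups of libraries, these values restate how cleanly each gene separated the groups and are given as a description. Of 7 pseudogene or antisense genes named after a member, 6 had from 0 to 9 counts in a library and were not tested, and EIF1B-AS1, which had from 27 to 66, did not pass (log2 fold change 0.32, edgeR adjusted p = 0.462). ENSG00000235837, which overlaps BZW2 on the other strand, had a mean count of 20.3 and did not pass either (log2 fold change 0.26, edgeR adjusted p = 0.674).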

How the data were processed

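RNA-seq counts and FPKM values per gene were used for 3 NC and 3 siEIF1 libraries, grouped by their sample titles. The authors trimmed reads with FASTX-Toolkit, aligned them to GRCh38 with HISAT2 and deposited raw counts of uniquely mapped reads. The authors also deposited FPKM values, rounded, which gave the levels and ratios. The paper describes strand-specific libraries, but the counting program, its strand setting and the annotation release are not given in the sources used here. All columns were matched to a library, and 0 were left out.

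Counts were filtered with filterByExpr and compared with edgeR 4.0.16 in R 4.3.3 (TMM, quasi-likelihood test, Benjamini-Hochberg adjustment over 16749 genes), and the standard error was derived from the F statistic. DESeq2 1.42.0, which the authors used, and limma 3.58.1 on log2(FPKM + 1) and log2(FPKM + 0.1) were alternatives, as were other normalizations and filters, the replicate number in the model and leaving out each library. The edgeR and DESeq2 tests were checked on simulated counts. The deposited replicates are described as biological, and libraries of a group differed by more than sampling noise (chi-square statistics over their degrees of freedom were 3.04 to 14.2).

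Start codons, exon lengths and overlaps were read from GENCODE release 44. The members and lists were chosen with earlier results of these data known. Named are all members, at most 3 genes per list, those past the threshold with the lowest p-values, copies of members, the 3 genes most and least like EIF1, and further list members chosen after their values were seen.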

Additional observations from a re-analysis of the deposited data

How the results depend on the processing

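Of the 10 members, EIF1, EIF5 and BZW2 kept their direction and passed an adjusted p of 0.05 in all 14 alternatives, with log2 fold changes from -3.61 to -3.55 for EIF1, from -0.62 to -0.55 for EIF5 and from 0.21 to 0.27 for BZW2. EIF1AX passed in 9 of 14. DENR and MCTS1 kept their direction without passing in any. The values near 0 changed sign. EIF5B was at -0.00093 with RLE normalization, -0.0045 with no filter on low counts, -0.0026 with DESeq2, -0.019 with limma on log2(FPKM + 1) and -0.019 with a pseudocount of 0.1. EIF2D was at -0.0085 and -0.0093 with limma at these pseudocounts. With each library left out, EIF5B ran from -0.034 to 0.038, EIF2D from -0.012 to 0.034, EIF1B from -0.13 to 0.036 and BZW1 from -0.13 to 0.020. None of these passed. The 4 ratios kept their direction in each of 8 alternatives. Dividing by merged exon length and adding the replicate block return nearly the main values by construction, and the rest each left out a library. The direction of EIF5 to EIF1 and of the EIF1B share also follows from the knockdown of EIF1.

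With the replicate number as a block (replicate block), EIF1 was at -3.58 and the same number of members passed, 4. Same-numbered libraries deviated together only weakly (correlations 0.150, 0.0946 and 0.128), below 0.1 in 1 pair, so the numbers were not taken as pairs. Each library correlated best with its own number, a hint from the data and not from the design. The block raised the genes that passed from 3446 to 4277. The genes past both limits numbered 286 and, with limma on log2(FPKM + 1), 20 and, with 0.1, 180, while those past the adjusted p alone numbered 1397 and 1485. Without siEIF1 replicate 2, 2242 passed the adjusted p. Without NC replicate 1, 2356 did. The cause was not tested. The members' depth, at least 1493 counts in each library, gave standard errors from 0.049 to 0.070.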

Other observations

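Among 13023 tested genes with a canonical start codon, the median log2 fold change was -0.0013 for the 1705 without a purine at the third base before the ATG, the class of EIF1, EIF1B, BZW1 and BZW2, and 0.0018 for the 11318 with one. An adjusted p under 0.05 (edgeR) was reached by 21.6% of the former and 25.1% of the latter. For the 5445 genes with an upstream ATG the median was 0.0083 and 22.6% passed, and for the 7578 without one the median was -0.0039 and 26.2% passed. These differences between classes were not tested, and genes of 1 set of libraries are not independent replicates.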
